A study of Homo sapiens with 3 samples.

Results

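The genes that copy DNA and supply its building blocks were examined in YB5 cells after decitabine, after carboplatin and after their combination. The set was a list of 44 genes chosen by function, from origin recognition to nucleotide supply, and found by gene name on the arrays. A value was obtained for 40 of the 44, of 17450 genes measured in all. ORC2 to ORC6 stand under their older symbols in the files, so 5 members were matched through the RefSeq table of synonyms.

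All groups, controls included, came from 1 clone, YB5, made from human SW48 colon cancer cells. Its genome holds a methylated, silent reporter (GFP behind the CMV promoter) at 1 copy. Cells received decitabine at 25 nM, carboplatin at 20 μM by the sample labels, or both at these doses. Each was given 4 times, daily from day 1 to day 4, and RNA was taken on day 6. Control cells received DMSO, and treated and control RNA shared a dual-colour Agilent array, with 1 array per treatment. All treated RNA carried Cy3 and all control RNA Cy5, so a dye preference of a probe is part of each change and cancels in a difference between arrays. Whether the 3 control channels hold a single RNA extract is not given in the sources used here. With 1 array per treatment no test between conditions was possible, and the values have no biological error.

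A cell prepares for DNA synthesis by loading the ring-shaped MCM helicase onto origins that the origin recognition complex marks. CDC6 and CDT1 carry out this loading, and geminin (GMNN) restrains CDT1. The kinase CDC7 and the GINS complex turn loaded rings into moving forks. Primase and polymerase alpha begin each strand, and polymerases delta and epsilon, held by the PCNA clamp, extend it. Ribonucleotide reductase, thymidylate synthase and thymidine kinase provide the deoxynucleotides. Many of these genes are known targets of the E2F transcription factors and are switched on as cells enter the cell cycle. Decitabine is a cytidine analog that traps DNA methyltransferases on DNA, and carboplatin forms platinum crosslinks in DNA.

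The promoters of 6 members past the 1.5-fold mark are shown because they differ in the direction of change and all hold an E2F word. Each is a RefSeq sequence of GRCh38.p14, from 190 bases before the start of the gene to the first 10 bases transcribed, written 5′ to 3′ in the direction of the gene. Capitals mark TTTCCCGC, TTTCGCGC, TTTGCCGC or TTTGGCGC on either strand.
MCM3 (chr6:52284733-52284932, strand -): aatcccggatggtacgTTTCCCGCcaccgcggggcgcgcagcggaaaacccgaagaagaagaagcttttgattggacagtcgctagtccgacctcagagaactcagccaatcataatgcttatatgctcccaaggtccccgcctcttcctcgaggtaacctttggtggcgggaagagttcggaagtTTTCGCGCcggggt
GINS3 (chr16:58392281-58392480, strand +): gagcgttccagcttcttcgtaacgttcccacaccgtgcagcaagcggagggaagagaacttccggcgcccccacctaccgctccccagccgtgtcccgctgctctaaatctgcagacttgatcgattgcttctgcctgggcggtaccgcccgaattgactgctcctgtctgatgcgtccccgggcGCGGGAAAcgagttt
POLE2 (chr14:49688205-49688404, strand -): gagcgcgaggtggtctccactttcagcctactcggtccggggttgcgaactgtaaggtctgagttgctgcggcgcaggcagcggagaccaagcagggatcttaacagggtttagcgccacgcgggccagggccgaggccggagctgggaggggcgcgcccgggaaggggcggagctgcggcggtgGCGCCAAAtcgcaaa
RFC3 (chr13:33817959-33818158, strand +): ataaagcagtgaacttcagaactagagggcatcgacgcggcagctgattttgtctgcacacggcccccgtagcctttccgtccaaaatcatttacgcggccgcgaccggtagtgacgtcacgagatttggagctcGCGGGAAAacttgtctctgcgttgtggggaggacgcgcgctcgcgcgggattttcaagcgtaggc
PCNA (chr20:5126613-5126812, strand -): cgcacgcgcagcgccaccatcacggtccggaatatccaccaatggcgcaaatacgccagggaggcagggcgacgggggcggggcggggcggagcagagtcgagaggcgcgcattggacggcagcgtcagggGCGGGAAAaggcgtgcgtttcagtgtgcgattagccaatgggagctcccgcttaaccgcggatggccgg
CDT1 (chr16:88803599-88803798, strand +): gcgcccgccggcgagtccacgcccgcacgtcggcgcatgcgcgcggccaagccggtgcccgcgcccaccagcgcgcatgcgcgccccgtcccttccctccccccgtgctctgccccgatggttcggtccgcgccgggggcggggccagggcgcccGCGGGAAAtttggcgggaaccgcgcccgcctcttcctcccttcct
MCM3, GINS3, POLE2 and RFC3 had lower signal on the array labelled with both drugs, PCNA had higher signal on the array labelled decitabine, and CDT1 had higher signal on the array labelled carboplatin. The MCM3 words begin at positions -174 and -4, where 1 is the first transcribed base, and the PCNA word begins at -59.

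Before the results, 3 features of the arrays matter. Spot columns 1 to 9 stood apart on the array labelled decitabine, with a median log2 change of 0.763 against -0.0327 and 0.0145 in the same columns of the other arrays, and these columns were left out everywhere. A list of 53 genes was described with these data as lowered by carboplatin. It covers only the enriched categories of cell division, cell cycle and DNA replication. Of the 53, 39 were at least 1.5-fold lower with the decitabine label, 4 with the carboplatin label and 37 with the both-drug label. The list and the labels of the single-drug arrays are thus in conflict, and arrays are called here by their labels throughout. It holds 7 of the genes examined here (GINS2, GINS3, RFC3, POLA1, POLD3, POLE2 and TK1) and was chosen on these samples. Lastly, of the colon epithelial markers, KRT18, KRT19, CDH1, CDX2, KRT8 and VIL1 were well above background in every channel, while CDX1 and GPA33 were in none. PTPRC, PECAM1 and COL1A2, which mark blood, vessel and connective tissue cells, were well above background in no channel, but VWF and COL1A1 were in every channel.

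All 40 members were well above background in both channels of all 3 arrays. Changes are given as log2 of treated over control signal after loess normalization, and a gene is counted as changed at 1.5-fold, 0.585 on the log2 scale. Probes spotted 10 times on an array gave a pooled SD between spots of 0.0776, 0.0748 and 0.0757 with the decitabine, carboplatin and both-drug labels, which is technical error within an array. The log2 control level of a member, scaled between arrays, had an SD over the 3 control channels of 0.00183 to 0.132, with a median of 0.057.

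On the array labelled decitabine the members were shifted down, with a median log2 change of -0.244 against -0.00145 over all genes. Of the 40, 34 (85%) lay below 0, where 50.3% of all genes did. At 1.5-fold, 7 members fell (17.5%) and 1 rose, where 4.91% of all genes fell and 5.08% rose. Among the 12166 genes well above background in every channel, which is the brightness class of all the members, 6.86% fell on this array and 51% lay below 0. The array labelled with both drugs gave a median of -0.248 against 0.00519 over all genes. On it, 32 members (80%) lay below 0, where 49% of all genes did. Here 7 members fell (17.5%) and 0 rose, where 5.82% of all genes fell and 7.39% rose. Of the genes well above background in every channel, 8.16% fell and 9.72% rose with both drugs. The array labelled carboplatin gave a median of 0.13 by loess, but -0.373 when each array was only centred on its median, so its direction depends on the normalization. On it, 0 members fell and 3 rose, where 1.43% of all genes fell and 2.74% rose. For the genes well above background in every channel these shares were 2.05% and 3.39%. With median centring 28, 10 and 26 members fell and 0 rose with the decitabine, carboplatin and both-drug labels, where 20.2, 18.4 and 21.2% of all genes fell, so the count of 10 is near that of all genes. In bulk RNA, less RNA per cell and fewer cells in DNA synthesis cannot be told apart.

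**Figure D1:**
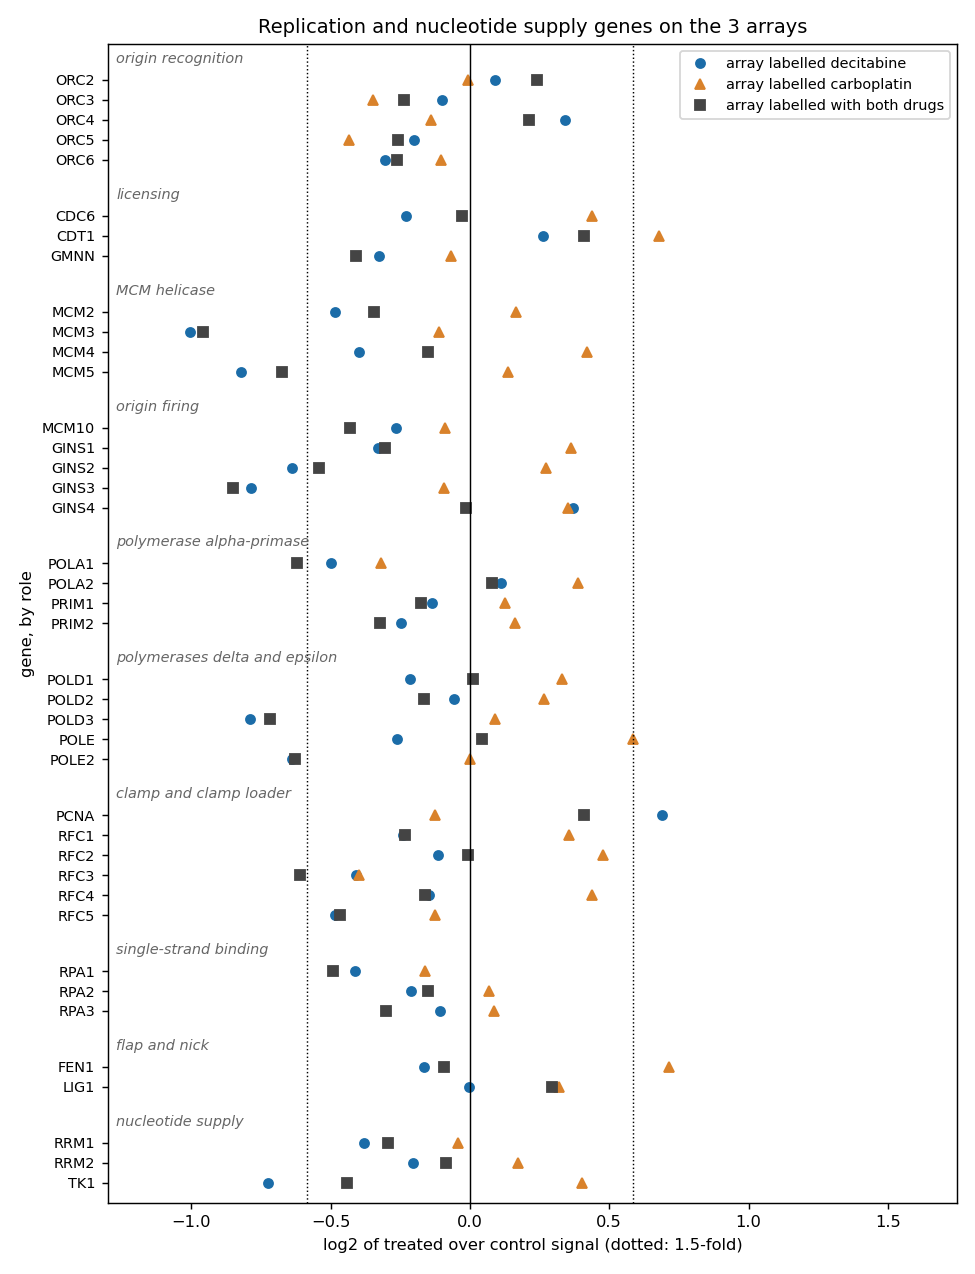
Log2 of treated over control signal (horizontal axis) of the 40 members with a value, ordered by role, with 1 point per array and dotted lines at 1.5-fold. The points of the arrays labelled decitabine and both drugs lie left of 0 for 34 and 32 genes, and those of the array labelled carboplatin for 16.

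The MCM helicase had the lowest median of the 10 roles on the arrays labelled decitabine (-0.65) and both drugs (-0.51), over the 4 subunits with a value. MCM3 had log2 control levels of 15.09, 15.07 and 15.07 with the decitabine, carboplatin and both-drug labels, and treated levels of 14.08, 14.96 and 14.11. The 3 control levels nearly coincide, and the treated level on the array labelled carboplatin is the one close to them. MCM3 thus fell 2.01-fold with the decitabine label (log2 -1.01) and 1.94-fold with the label for both drugs (-0.96), against a log2 change of -0.11 with the carboplatin label. Its probe lies at chr6:52128893-52128952 in the GRCh37 coordinates of the files.

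MCM5, another subunit of the ring, had control levels of 13.63, 13.56 and 13.59 and treated levels of 12.81, 13.69 and 12.91, in the same order of arrays. It fell 1.77-fold and 1.60-fold on the arrays labelled decitabine and both drugs and had a log2 change of 0.14 with the carboplatin label. MCM2 and MCM4 stayed inside 1.5-fold on every array. Their log2 changes were -0.49, 0.17 and -0.35 for MCM2 and -0.40, 0.42 and -0.15 for MCM4. For each of the 4 subunits, the array labelled carboplatin gave the highest value of the 3.

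Of the genes that fire origins, GINS3 and GINS2, subunits of the complex that joins the MCM ring at the fork, stood lowest. GINS3 had control levels of 13.01, 12.78 and 12.95 and treated levels of 12.23, 12.69 and 12.10. Its brightest probe fell 1.73-fold with the decitabine label and 1.80-fold with the label for both drugs. A dimmer second probe gave log2 changes of -0.40 and -0.37 there, short of 1.5-fold. GINS2 fell on the array labelled decitabine (log2 -0.64) and reached -0.54 on the array labelled with both drugs. GINS1 was inside 1.5-fold at -0.33, 0.36 and -0.31. GINS4 went another way, at 0.37, 0.35 and -0.01. MCM10, which helps to start the helicase, gave -0.27, -0.09 and -0.43.

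Of the origin recognition and licensing genes, CDT1 alone passed 1.5-fold, on the array labelled carboplatin. ORC2 to ORC6 stayed between -0.44 and 0.34 on all arrays, with 0 members past 1.5-fold. The probes of ORC5 disagreed in sign on all 3 arrays, with -0.44 against 0.18 on the array labelled carboplatin. Those of ORC4 disagreed in sign on the arrays labelled decitabine and both drugs. The ORC6 probes did so on the arrays labelled carboplatin (-0.10 and -0.24 against 0.41) and both drugs. No direction is given for these genes there. CDC6 gave -0.23, 0.44 and -0.03, and GMNN gave -0.33, -0.07 and -0.41. CDT1, the loading factor, had control levels of 11.44, 11.56 and 11.49 and treated levels of 11.70, 12.24 and 11.90. All 3 treated levels lie above all control levels. CDT1 rose 1.60-fold on the array labelled carboplatin (log2 0.68) and had log2 changes of 0.26 and 0.41 on the other arrays.

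Among the polymerases, the accessory subunits POLD3 and POLE2 fell with the decitabine and both-drug labels. POLD3, a subunit of polymerase delta, had control levels of 12.46, 12.24 and 12.43 and treated levels of 11.67, 12.33 and 11.71. Its brightest probe fell 1.73-fold and 1.65-fold on the arrays labelled decitabine and both drugs, and a second probe gave log2 changes of -0.56 and -0.55 there, short of 1.5-fold. POLE2, the second subunit of polymerase epsilon, fell 1.56-fold and 1.55-fold there, with a log2 change of -0.00 on the array labelled carboplatin. POLA1, the catalytic subunit of polymerase alpha, had values of -0.50, -0.32 and -0.62, and passed 1.5-fold only on the array labelled with both drugs. The catalytic subunit POLE gave -0.26, 0.59 and 0.04. Its value of 0.586 on the array labelled carboplatin is only just past the 0.585 that counts as a rise. A second POLE probe gave 0.20 there, but its control channel was not well above background on any array. POLD1 (-0.22, 0.33 and 0.01), POLD2 (-0.06, 0.26 and -0.17) and POLA2 (0.11, 0.39 and 0.08) did not reach 1.5-fold by their brightest probe. Nor did PRIM1 (-0.14, 0.12 and -0.17) and PRIM2 (-0.25, 0.16 and -0.32). A POLD1 probe in the left-out columns gave 0.63 on the array labelled carboplatin, past 1.5-fold.

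PCNA, the sliding clamp, ran against its neighbours. Its log2 control levels were 14.00, 14.03 and 13.98, and its treated levels were 14.69, 13.91 and 14.39 with the decitabine, carboplatin and both-drug labels. The treated level lay above the controls with the decitabine label and with both drugs and below them with the carboplatin label. PCNA rose 1.61-fold with the decitabine label, with a log2 change of 0.69 ± 0.0752 (SD between spots, n = 10 spots). The change was -0.13 ± 0.0393 (n = 9 spots) with the carboplatin label and 0.41 ± 0.0471 (n = 10 spots) with both drugs. PCNA is also known as a p53 target gene. With median centring its rise shrank to 0.158, short of 1.5-fold.

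The clamp loader, which opens PCNA around DNA, did not follow the clamp. RFC3 fell on the array labelled with both drugs (1.53-fold) and had log2 changes of -0.41 and -0.40 on the single-drug arrays. Its second probe gave -0.56 on the array labelled with both drugs, short of 1.5-fold. RFC5 gave -0.48, -0.13 and -0.47. RFC2 (-0.12, 0.48 and -0.01) and RFC4 (-0.15, 0.44 and -0.16) had their positive values on the array labelled carboplatin. RFC1 gave -0.24, 0.36 and -0.23, but its second probe gave -0.15 on the array labelled carboplatin.

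RPA1, RPA2 and RPA3 bind single-stranded DNA, and their values ran from -0.41 to -0.11 on the array labelled decitabine and from -0.49 to -0.15 on the array labelled with both drugs. FEN1, which cuts flaps from lagging strand fragments, had control levels of 11.34, 11.14 and 11.32 and treated levels of 11.18, 11.85 and 11.22. It rose 1.64-fold on the array labelled carboplatin, but its second probe gave a log2 change of 0.37. Its control level was lowest on that same array. LIG1, which seals the nicks, gave -0.00, 0.32 and 0.30.

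In nucleotide supply, thymidine kinase (TK1) had control levels of 16.69, 16.73 and 16.75 and treated levels of 15.96, 17.13 and 16.31. TK1 fell 1.66-fold with the decitabine label. Its log2 change was 0.40 with the carboplatin label and -0.44 with both drugs. RRM1, the large subunit of ribonucleotide reductase, gave -0.38, -0.04 and -0.29. RRM2, the small subunit, gave -0.21, 0.17 and -0.09 from its brightest probe, and -0.13, -0.43 and -0.37 from another.

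MCM6, MCM7, CDC7 and TYMS, the thymidylate synthase gene, have spots only in the left-out columns. No change can be read for them on the array labelled decitabine, where the control signal of the MCM6 probe was 10920 against 28790 and 23110 with the carboplatin and both-drug labels. On those arrays, MCM6 gave log2 changes of -0.29 and -0.95. The values were 0.23 and -0.15 for MCM7, -0.05 and -0.64 for CDC7, and -0.42 and -0.49 for TYMS. Further probes in these columns gave 0.71 and 0.58 for CDT1, 0.63 and 0.18 for POLD1, and -0.08 and -0.51 for RRM2 on the same arrays. None of these values enters a count of the 40 members.

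**Figure D2:**
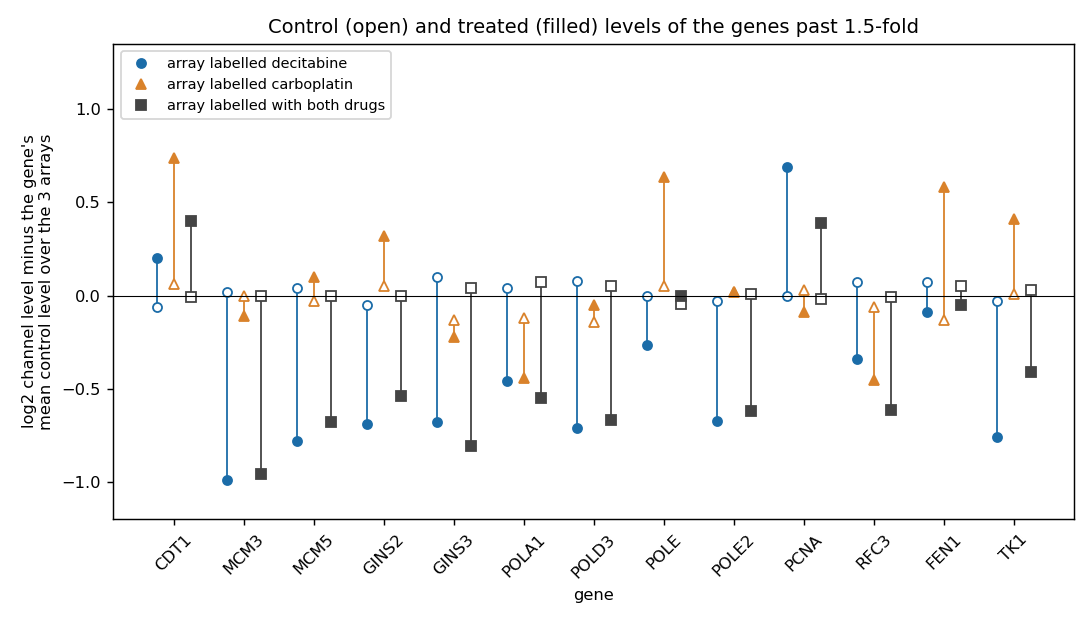
Control (open) and treated (filled) log2 channel levels of the 13 members past 1.5-fold on any array, each minus the gene's mean control level over the 3 arrays (vertical axis), with colours and shapes for the arrays. The filled points of MCM3 lie near -1 on the arrays labelled decitabine and both drugs, and those of PCNA lie above 0 on these arrays.

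Differences between arrays show the contrast of the drugs without the dye preference of a probe. All 3 comparisons below use the same arrays, so they are not independent. The change with the decitabine label minus that with the carboplatin label had a median of -0.369 over the members. It was below 0 for 34 of 40 (85%), against 50.7% of all genes. It passed 1.5-fold downward for 16 members (40%), where 4.48% of all genes did. It passed upward for 1 member (2.5%), PCNA (0.82), where 3.69% of all genes did. Among the genes well above background in every channel, 5.79% passed downward and 5.1% upward. TK1 had the lowest difference at -1.13, followed by MCM5 (-0.96), GINS2 (-0.91) and MCM3 (-0.90). Among the 16 members, GINS3, RFC1 and POLE passed by their brightest probe only. A second probe of each stayed inside 1.5-fold, but that of POLE was not well above background in any control channel. The median of this difference kept its sign in each setting run, from -0.49 to -0.329, median centring included.

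Both drugs minus the carboplatin label gave a median of -0.355, with 35 of 40 members (87.5%) below 0, against 49.2% of all genes. For 11 members (27.5%) the difference passed 1.5-fold downward, against 3.36% of all genes and 4.56% of those well above background in every channel. The 11 were MCM3, MCM5, GINS1, GINS2, GINS3, POLD3, POLE2, RFC1, RFC4, FEN1 and TK1. Of these, GINS3 and RFC1 passed by their brightest probe only. A second GINS3 probe gave 0.04 with the carboplatin label and -0.37 with both drugs, and a second RFC1 probe gave -0.15 and -0.44. Both drugs minus the decitabine label gave a median of 0.0214 and a range from -0.384 (GINS4) to 0.306 (POLE). Here 0 members were 1.5-fold apart, against 2.14% of all genes. The members that fell on both of these arrays numbered 5 of the 7 on each, namely MCM3, MCM5, GINS3, POLD3 and POLE2.

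Whether the drugs added up was asked by setting the change with both drugs against the sum of the single-drug log2 changes. The median difference was -0.0647, and 26 of 40 members (65%) were below the sum, against 48.8% of all genes. GINS4 (-0.74) and FEN1 (-0.64) were at least 1.5-fold below it, 2 members or 5%, against 3.23% of all genes in either direction. A second probe of each, also well above background, was nearer the sum, at -0.48 for GINS4 and -0.40 for FEN1. The count of 2 became 9 with median centring and 1 with the processed signals, the authors' values or the median over probes. For the other members the change with both drugs was within 1.5-fold of the sum. A dye preference enters the sum from each single-drug array and does not cancel here.

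**Figure D3:**
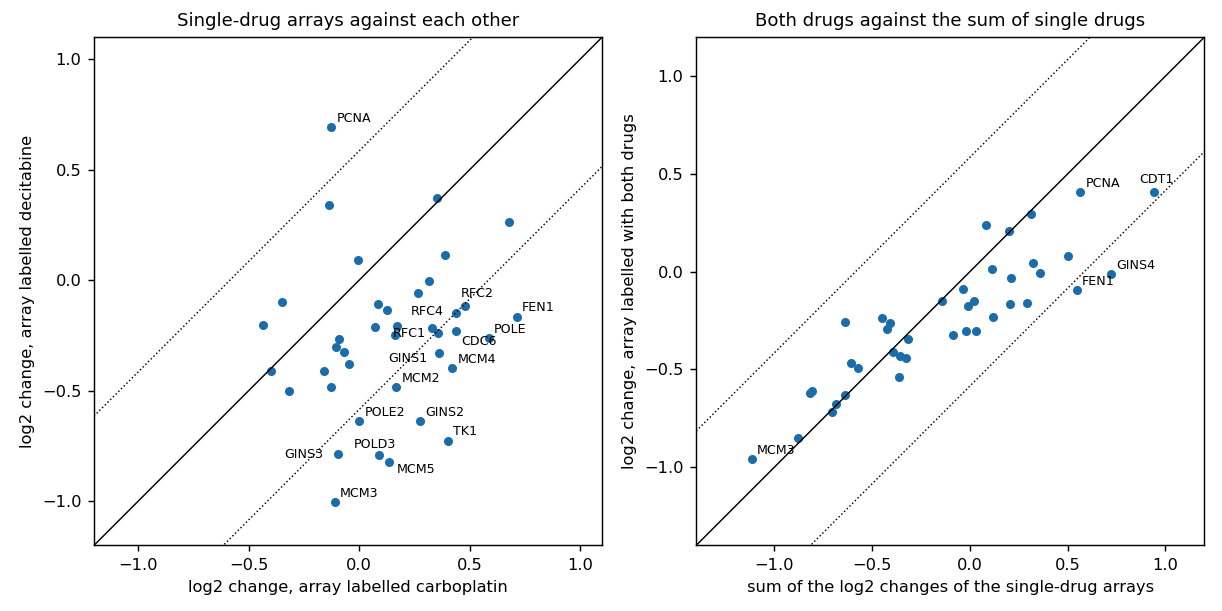
Log2 changes of the 40 members on the single-drug arrays (left) and on the array labelled with both drugs against the sum of the single-drug changes (right), with the line of equal values and dotted lines 1.5-fold from it. In the left panel 16 members lie below the lower dotted line and PCNA lies above the upper one, and in the right panel GINS4 and FEN1 lie below the lower line.

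Other genes of the pathway were taken from lists chosen by function. Of 29 further replication genes with a value, such as checkpoint and chromatin assembly factors, 0 rose on any array. With the decitabine, carboplatin and both-drug labels, 4, 0 and 5 fell (13.8, 0 and 17.2%). Over all genes, 4.91, 1.43 and 5.82% fell and 5.08, 2.74 and 7.39% rose. The medians of the 29 genes were -0.352, -0.0328 and -0.382. TICRR, an origin firing factor, gave -0.88, -0.16 and -0.84. TOP2A, the topoisomerase that untangles sister DNA, gave -0.78, -0.33 and -0.94. ASF1B, a histone chaperone, gave -0.66, 0.11 and -0.69, and DBF4, the activator of CDC7, gave -0.57, -0.20 and -0.70.

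Of 31 further genes of nucleotide metabolism, 2, 0 and 1 fell (6.45, 0 and 3.23%). The rises numbered 2, 0 and 3 (6.45, 0 and 9.68%). These shares are near those of all genes, of which 4.91, 1.43 and 5.82% fell and 5.08, 2.74 and 7.39% rose. The medians of the list were 0.0452, -0.0151 and 0.11. RRM2B, the p53-inducible small subunit of ribonucleotide reductase, rose on the arrays labelled decitabine and both drugs, at 1.77, 0.49 and 1.95, in contrast to RRM1 and RRM2. DTYMK, which phosphorylates thymidylate, gave -0.64, 0.11 and -0.64. NME1, a nucleoside diphosphate kinase, gave 0.64, 0.09 and 0.65, and DHODH, an enzyme of pyrimidine synthesis, gave 0.58, 0.02 and 0.65.

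Genes of mitosis, listed for comparison, had lower medians than the members. Of 35, 31 fell on the array labelled decitabine, 1 with the carboplatin label and 31 with both drugs, with medians of -1.01, -0.134 and -1. These falls were 88.6, 2.86 and 88.6% of the list, against 4.91, 1.43 and 5.82% of all genes. ECT2, a regulator of cytokinesis, gave -2.05, -0.41 and -1.31, and ASPM, a spindle pole protein, gave -2.03, -0.60 and -1.81. CENPF (-1.70, -0.34 and -1.46) and CENPE (-1.68, -0.58 and -1.71), both of the kinetochore, followed. Of 16 housekeeping genes, 2, 4 and 3 fell (12.5, 25 and 18.8%) and 0 rose, with medians of -0.129, -0.163 and -0.155. They included ACTB (-0.84, -0.54 and -1), PPIA (-0.84, -0.77 and -0.91), RPLP0 (-0.43, -0.73 and -0.65) and PGK1 (-0.14, -0.73 and -0.42). The part of this housekeeping shift in the members' values was not tested. Of the epithelial markers, VIL1 gave -0.86, 1.87 and 0.20, KRT18 gave 0.83, 0.50 and 1.15, KRT19 gave -0.00, 0.71 and 0.85, and CDH1 gave -0.88, 0.02 and -0.86. Of the markers of other cell types, COL1A1 gave -0.38, 0.29 and -0.29, VWF gave -0.31, -0.09 and -0.14, and CD3E gave -0.03, 0.01 and -0.02.

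**Figure D4:**
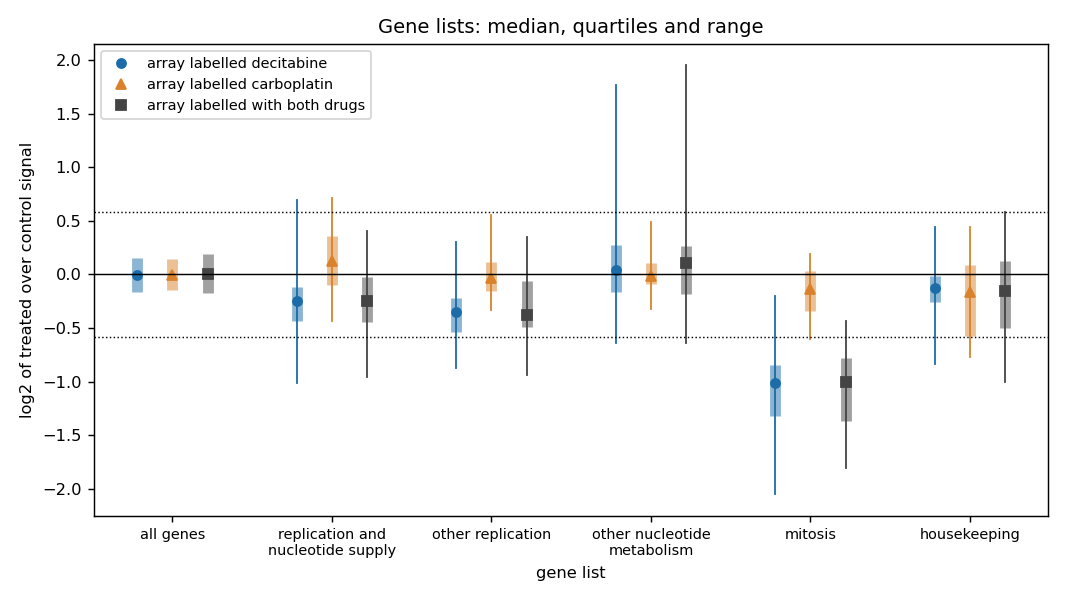
Median (symbol), the span from the lower to the upper quartile (thick bar) and range (thin line) of the log2 change for the members and 4 other gene lists on each array, with median and quartiles for all 17450 genes. The mitosis genes have medians of -1.01 and -1 on the arrays labelled decitabine and both drugs, and the members -0.244 and -0.248.

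Promoter windows of 300 bases, from 250 before the start to 50 after it, were found for 38 of the 44 members. Those of MCM4, MCM5, GINS4, POLD3, RPA2 and RPA3 were not analysed here. An E2F word stood on either strand in 18 of the 38 windows (47.4%), against 3.33% of the 27305 windows in the table and 4.53% of the 13546 windows of genes measured on the arrays. The share was 14.3% for the other replication genes, 9.09% for the mitosis genes and 3.85% for the other nucleotide genes. E2F words on opposite strands can overlap, as in MCM6. CCAAT stood on either strand in 52.6% of the members' windows and in 78.8% of those of the mitosis genes, against 36.5% of the windows of measured genes. Among members with a value, the 15 with an E2F word had median changes of -0.331, 0.166 and -0.305, and the 19 without one had -0.217, 0.124 and -0.234. Of the 15, 4 fell with the decitabine label and 5 with both drugs, and of the 19, 1 and 0 did. Over all genes, 4.91 and 5.82% fell on these arrays. MCM5 and POLD3, which also fell on both of them, have no window and stand in neither group. PCNA and CDT1 hold the word and lie at the upper end of the values, so members with the word span the range from -1.01 to 0.69 on the array labelled decitabine.

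**Figure D5:**
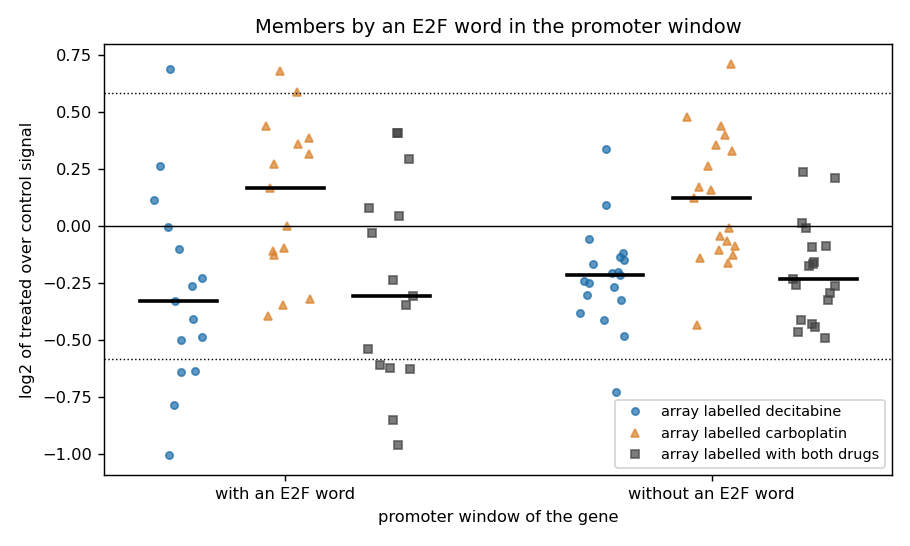
Log2 change of the members with and without an E2F word in the promoter window, with 1 point per gene and array and a bar at the median. The points with the word reach from -1.01 (MCM3) to 0.69 (PCNA) on the array labelled decitabine.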

How the data were processed

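RNA of treated and DMSO control YB5 cells was measured on 3 dual-colour arrays, 1 per treatment, which share a slide. The members and gene lists were chosen with earlier results of these data known. The scanner intensity values were deposited as read by Agilent Feature Extraction (9.5.3.1 in the file headers, 8.5.1.1 in the submitters' processing notes). The authors' table of log2 ratios was loess normalized by the authors with limma in R 3.0.2, and its direction, which is not stated, was taken from its correlation of 0.948, 0.908 and 0.959 with that array's scanner values.

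Here, mean signals were background corrected by normexp (offset 50, which shrinks changes of dim probes) and loess normalized within each array in limma 3.58.1 (R 4.3.3), with control spots, outlier spots and columns 1 to 9 left out. The sign was turned to treated over control, following the dyes in the labels. Channel levels were scaled between arrays by Aquantile. Of 41000 probes, 29381 could be named through the RefSeq table. A gene was represented by its brightest probe, and 12 members had several probes well above background, of which 2, 5 and 3 disagreed in sign with the decitabine, carboplatin and both-drug labels. Signal was well above background at 65.8, 68.4 and 68.5% of spots in the treated channel and at 69, 70.3 and 68.2% in the control channel. No test was run, since each treatment has 1 array. All members were described, and of each other list the 4 genes with the largest change on an array where both channels were well above background. A gene that this rule selects is not reported here. Scripts were tested on simulated data. Alternatives were the processed signals, median signals, median centring, edge columns in the loess, the authors' values, the median over probes and a filter on dim probes. Retention of all columns and the differences between arrays were added after seeing the data. Exon and UTR positions of probes were not analysed here.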

Additional observations from a re-analysis of the deposited data

How the results depend on the processing

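All falls of members past 1.5-fold kept their direction and stayed past 1.5-fold in each of 7 alternative settings. Of the rises, PCNA on the array labelled decitabine held in 6, and CDT1, POLE and FEN1 on the array labelled carboplatin in 6, 5 and 4. The filter on dim probes, 1 of the 7, could change no member, since all 40 were well above background in every channel. Median centring lowered the members' medians on every array, so it is no check on the falls. Median centring moved the median of all genes to -0.126, -0.148 and -0.0977 with the decitabine, carboplatin and both-drug labels, and that of the members to -0.681, -0.373 and -0.697, which lie -0.555, -0.225 and -0.599 from it. It reversed the members' median on the array labelled carboplatin, gave 28, 10 and 26 falls and 0 rises with the decitabine and carboplatin labels, and 9 members 1.5-fold from the sum. It applies no correction for brightness. Over all genes it gave 3525, 3216 and 3706 falls and 1127, 1508 and 753 rises. Processed signals gave a decitabine median of -0.351 with 11 falls, 1 member apart from the sum, and a median difference of -0.49 between the decitabine and carboplatin labels. Over all genes they gave 2044, 1056 and 1950 falls and 3958, 1344 and 2275 rises. The authors' values gave medians of 0.015 and -0.335 with the carboplatin label and both drugs, and 1 member apart from the sum. They gave 1 fall of 40 with the carboplatin label, where 3.08% of all genes fell. The median over probes gave 1 member apart from the sum and 1 rise of 40 with the carboplatin label, where 2.42% of all genes rose. All columns kept gave 5 rises of 44 with the decitabine label, where 10.6% of all genes rose, and 7 members apart from the sum. Besides PCNA, the rises were CDT1 (2.115), MCM7 (1.204), CDC7 (0.631) and TYMS (1.249), each from a probe in columns 1 to 9. The cause of these moves was not tested. No paired analysis was possible because each treatment has 1 array, and for the same reason none could be left out.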
